A study of Mus musculus with 9 samples.

Results

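Itpr1, which encodes the type 1 inositol 1,4,5-trisphosphate (IP3) receptor, was examined in mouse brain libraries beside 8 genes of the cerebellar cortex. These were the Purkinje cell genes Pcp2, Car8, Calb1 and Ppp1r17 and the granule cell genes Cbln1, Cbln3, Neurod1 and Zic1. The question was whether Itpr1, described in the study as responsive to baclofen, followed the cerebellar content of the libraries. The 9 genes were found by symbol among the 53465 genes of the count table, each in a single row, and all 9 were among the 18501 genes that passed the filter on low counts. Itpr1 was chosen by its measured values, having its lowest levels in the DNP group and higher ones in both CON and BAC, and the other 8 were selected on known cell type with their variation between these libraries in view. Those contrasts are therefore given as a description. Counts from the fit across all genes stand beside the share over all genes, and nothing is read from them for the 9 genes.

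RNA was measured by poly(A) sequencing of brain tissue from 9 male C57BL/6 mice aged 7 weeks at the start, with 3 mice in each of 3 groups. CON mice were healthy and received saline. DNP mice, a model of diabetic neuropathic pain, ate a 60% fat diet during 4 weeks, were given streptozotocin at 50 mg/kg on 7 days, and then received saline. BAC mice went through the same diet and streptozotocin and were then given the GABA-B receptor agonist baclofen at 8 mg/kg on 7 days. No untreated healthy mice received baclofen, so an effect of the drug was measured on the diabetic background alone. Libraries are named by group and replicate (CON 2 is the library of control replicate 2).

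The IP3 receptor is a calcium channel of the endoplasmic reticulum that opens when IP3, made by phospholipase C downstream of Gq-coupled receptors, binds to it. Itpr1 is its main neuronal form and is especially abundant in cerebellar Purkinje cells and acts there in synaptic plasticity, but it is also made in forebrain neurons. Granule cells are the small excitatory neurons whose parallel fibres contact Purkinje cells, and they make up most of the neurons of the cerebellum.

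In GRCm38 coordinates Itpr1 lies at chr6:108213096-108551109 on the plus strand. The genes Pcp2 (chr8:3623371-3625545), Car8 (chr4:8143362-8239041), Cbln1 (chr8:87468405-87472609), Cbln3 (chr14:55878913-55884392), Neurod1 (chr2:79452521-79456751) and Zic1 (chr9:91358058-91365810) lie on the minus strand. Calb1 (chr4:15881264-15908064) and Ppp1r17 (chr6:56017497-56032689) lie on the plus strand. All 9 are annotated as protein coding. The libraries do not keep strand, and exons of Pcp2 share 941 bp with Pet100 on the opposite strand, so that a few reads counted for Pcp2 cannot be told apart from reads of Pet100, which had 66 to 157 counts in every library. Shared exonic sequence was shorter for Neurod1 with Cerkl (201 bp) and Zic1 with Zic4 (60 bp), and the transcripts antisense to Itpr1 had at most 8 counts.

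The promoters of Pcp2 and Cbln3 are shown because these genes, of a Purkinje and a granule cell respectively, had nearly the same course over the libraries. Each line holds the 250 bases before the annotated start, read along the gene's strand, from RefSeq (GRCm38.p6): chr8:3625548-3625797 and chr14:55884257-55884506, both on the minus strand. For Cbln3 this RefSeq start lies inside the gene span given above, so part of its line falls within that span. Capitals mark the matches to motifs that were searched on both strands.
Pcp2: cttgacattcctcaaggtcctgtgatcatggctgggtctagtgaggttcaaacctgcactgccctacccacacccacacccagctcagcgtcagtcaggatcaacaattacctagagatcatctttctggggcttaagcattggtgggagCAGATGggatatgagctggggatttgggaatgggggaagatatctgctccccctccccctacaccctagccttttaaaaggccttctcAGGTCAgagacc
Cbln3: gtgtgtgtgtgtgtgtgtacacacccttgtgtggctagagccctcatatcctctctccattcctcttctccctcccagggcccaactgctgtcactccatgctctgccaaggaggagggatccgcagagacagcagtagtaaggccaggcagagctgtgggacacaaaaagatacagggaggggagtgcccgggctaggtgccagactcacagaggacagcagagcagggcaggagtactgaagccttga
The Pcp2 promoter held CAGATG, an E-box bound by NEUROD1, 94 bases before the start and AGGTCA, bound by RORA and other nuclear receptors, 6 bases before it. The Cbln3 promoter held neither of them, nor the ZIC motif CAGCAGG. Of 4 members with a promoter in the table (Pcp2, Cbln3, Neurod1 and Zic1), 1 held AGGTCA, 1 held CAGATG and none held CAGCAGG. Among 27025 promoters of the same length 13.8%, 14.5% and 8.33% held these letters, so a match is a description of the sequence and not of a bound site. The sequences of Itpr1, Car8, Calb1, Ppp1r17 and Cbln1 were not analysed here.

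The libraries held 13107382 to 16008129 counts. Levels are given as CPM, counts relative to library size scaled by the trimmed mean of M values (TMM), and as FPKM, which also divides by gene length, where genes are compared with each other. The label whole brain was checked against 7 granule and 6 Purkinje reference genes that are not members. Gabra6, a GABA-A receptor subunit of granule cells, had 0 counts in DNP 2, DNP 3 and BAC 2, where 3 counts would be 0.205, 0.197 and 0.207 CPM, and 344 CPM in CON 2. The Purkinje transcription cofactor Skor2 had 0 counts in the same 3 libraries and 250 in CON 2. Thus 2 of the 13 reference genes were not detected at this depth in any of these 3 libraries, which are in the DNP and BAC groups. Other reference genes were detected there, among them the granule gene Cdh15 with 67, 24 and 57 counts and the Purkinje glutamate transporter gene Slc1a6 with 108, 156 and 188, against 1024 and 2567 in CON 2. Some were close to the floor in these libraries. The granule gene Fat2 had 3, 0 and 3 counts and the Purkinje gene Lhx1 had 0, 2 and 6, against 15488 and 1062 in CON 2. DNP 1, BAC 1 and BAC 3 also held counts of the hindbrain gene Hoxa5, and the summed level of 7 brainstem and spinal cord genes was 340.7 to 372 CPM in BAC 1 and BAC 3 and 349.6 CPM in DNP 1, against at most 28.8 CPM in CON. In bulk tissue fewer cells of a type and less RNA per cell cannot be told apart.

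Itpr1 had 905, 3149 and 1479 CPM in CON 1, CON 2 and CON 3. It had 428, 527 and 390 CPM in DNP 1, DNP 2 and DNP 3, and 1532, 701 and 671 CPM in BAC 1, BAC 2 and BAC 3. Every DNP library was below every CON and every BAC library, while the CON and BAC ranges overlapped. The means were 1844 ± 1166 CPM in CON, 449 ± 70.8 CPM in DNP and 968 ± 488 CPM in BAC (SD, n = 3 each). In the edgeR fit the log2 fold change was -2.04 (SE 0.49) for DNP versus CON and 1.11 (SE 0.48) for BAC versus DNP, comparisons that share the DNP libraries. The fold change of BAC versus CON was -0.93 (SE 0.48), with an adjusted p of 0.664 by edgeR's quasi-likelihood test. Single libraries carried much of these values. Without CON 2 BAC versus CON was -0.30, and without BAC 1 it was -1.44 and BAC versus DNP was 0.62.

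**Figure D1:**
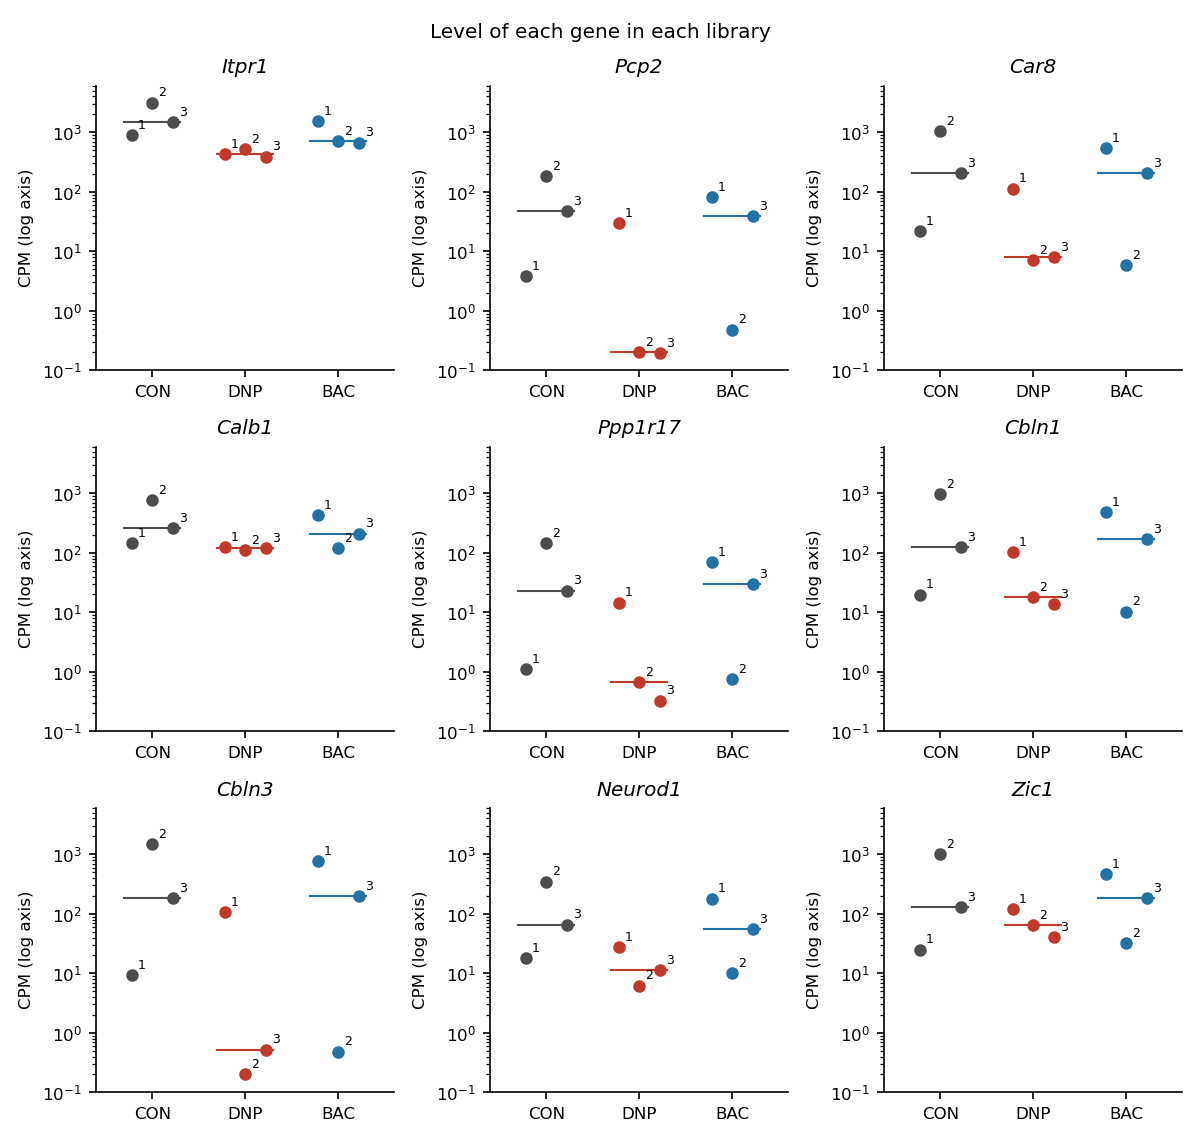
Each panel shows 1 gene, with CPM on a log axis against group. Points are libraries marked with their replicate number and lines are group medians. Itpr1 and Calb1 span 8.07 and 6.91 times from the lowest to the highest library, and the other genes span wider ranges, with DNP 2, DNP 3 and BAC 2 low.

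Of the Purkinje genes, Car8, Pcp2 and Ppp1r17 differed far more between libraries than Itpr1 did. Calb1 did not, and spanned 6.91 times from its lowest to its highest library against 8.07 times for Itpr1. Car8, a carbonic anhydrase-related protein that binds the IP3 receptor and lowers its affinity for IP3, had 21.8, 1034 and 204 CPM in CON, 114, 7.03 and 8.08 CPM in DNP, and 543, 5.94 and 204 CPM in BAC, in the order of replicates. Its highest level was 174 times its lowest, and all 3 groups overlapped. Pcp2, a Purkinje modulator of G protein signalling, had 58, 2591 and 682 counts in CON, 406, 3 and 3 in DNP, and 1122, 7 and 623 in BAC. Its near absence fell on the same 3 libraries that lacked Gabra6 and Skor2. Ppp1r17, a protein phosphatase inhibitor that is a substrate of cGMP-dependent protein kinase, had 1.13, 144 and 23.1 CPM in CON, 14.6, 0.683 and 0.328 CPM in DNP, and 70.4, 0.759 and 29.7 CPM in BAC. CON 1, a control library, was thus close to those 3 libraries for Ppp1r17. Calb1, the calcium buffer calbindin, had 145, 770 and 258 CPM in CON, 126, 111 and 120 CPM in DNP, and 435, 120 and 211 CPM in BAC. It stayed above 110 CPM in the libraries that lacked Gabra6 and, like Itpr1, is known from neurons outside the cerebellum. All 3 DNP values of Calb1 were below the CON values, but the DNP and BAC ranges overlapped.

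The granule cell genes also had their highest levels in CON 2 and BAC 1, and the order of the other libraries differed from gene to gene. Cbln3, a secreted partner of Cbln1 made by granule cells, had 139, 20658 and 2641 counts in CON, 1462, 3 and 8 in DNP, and 10479, 7 and 3174 in BAC. Cbln1, the synaptic organizer that parallel fibres secrete at their contacts with Purkinje cells, had 19.8, 969 and 126 CPM in CON, 102, 17.8 and 13.8 CPM in DNP, and 478, 10.3 and 172 CPM in BAC. Within each group the spread of both genes was larger than the distance between the group medians of CON and BAC. Neurod1, a basic helix-loop-helix transcription factor of granule neurons, had 18.1, 347 and 66.0 CPM in CON, 27.4, 6.21 and 11.2 CPM in DNP, and 179.9, 10.0 and 54.7 CPM in BAC. Zic1, a zinc finger transcription factor of granule cells, had 25.1, 1011 and 131 CPM in CON, 120.2, 65.2 and 41.0 CPM in DNP, and 471, 31.8 and 186 CPM in BAC. Zic1 alone among the 9 genes had its lowest level in a control library, CON 1. All 9 genes, Itpr1 included, were highest in CON 2, with BAC 1 next.

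On the per-length scale Itpr1 did not keep a fixed proportion to Car8, and its proportion to Calb1 varied less. In FPKM the ratio of Itpr1 to Car8 was 7.64, 0.561 and 1.33 in CON, 0.695, 13.8 and 8.90 in DNP, and 0.520, 21.8 and 0.607 in BAC. The ratio of Itpr1 to Calb1 ranged only from 0.826 in BAC 3 to 1.62 in CON 1. Itpr1 remained at 25.2, 18.8 and 32.8 FPKM in DNP 2, DNP 3 and BAC 2, the libraries without Gabra6 counts, where Car8 was at 1.83, 2.11 and 1.51 FPKM. In these libraries Calb1 was at 20.5, 22.3 and 21.6 FPKM.

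All 9 genes had a lower fitted level in DNP than in CON and a higher one in BAC than in DNP. For DNP versus CON the log2 fold changes ran from -3.97 (SE 2.64) for Cbln3 to -1.72 (SE 0.64) for Calb1, with a median of -3.06, against 0.01 over all genes tested. Single libraries moved these values, and Car8 was at -5.80 without DNP 1 and -1.40 without CON 2, against -3.29 with all libraries. At an adjusted p under 0.05 edgeR called 0 genes of 18501 (0%), 1011 genes were lower (5.46%) and 1056 higher at an unadjusted p under 0.05, and DESeq2 called 346 genes. Of the 9 genes 3 (Itpr1, Calb1 and Neurod1) were lower at an unadjusted p under 0.05. Itpr1 and Calb1, 2 of 9, were lower without overlap between the groups, as were 8.63% of all genes tested. The choice of Itpr1 used this contrast, so nothing is read from these counts.

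For BAC versus DNP the log2 fold changes ran from 1.10 (SE 0.63) for Calb1 to 3.17 (SE 2.55) for Cbln3, with a median of 2.302, against -0.01 over all genes. In that comparison edgeR called 0 genes at an adjusted p under 0.05 (0%), 253 genes were higher (1.37%) and 185 lower at an unadjusted p under 0.05, and DESeq2 called 7. Itpr1 was the 1 of 9 genes higher at an unadjusted p under 0.05, and the 1 of 9 without overlap, as were 3.38% of all genes. Here too the choice of Itpr1 used the contrast, and nothing is read from the counts. For BAC versus CON all 9 genes had negative fold changes, from -0.96 (SE 1.90) for Pcp2 to -0.61 (SE 0.62) for Calb1. There edgeR again called 0 genes (0%), 610 genes were lower (3.3%) and 826 higher at an unadjusted p under 0.05, and DESeq2 called 101. None of the 9 was lower at an unadjusted p under 0.05, and none was without overlap, as were 6.23% of all genes. Without CON 2 the sign of BAC versus CON turned positive for all 8 genes other than Itpr1, from 0.35 for Calb1 to 1.72 for Cbln3.

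To set the genes against cerebellar content, each library was given a granule score, the mean over the 7 granule reference genes (Gabra6, Fat2, Barhl1, Cdh15, Grin2c, Zic2 and En2) of the deviation of log2 CPM from the gene's mean over libraries. The granule score was -1.59, 3.84 and 1.22 in CON, 0.87, -2.69 and -3.06 in DNP, and 2.77, -2.97 and 1.61 in BAC. A Purkinje score from 6 genes, among them Slc1a6, Skor2, Rgs8, Lhx1 and Lhx5, ran with it at r = 0.991 over the 9 libraries, so granule and Purkinje content could not be separated. No library had a granule score between -1.59 and 0.87, and neither side of this gap held 6 libraries, so that no value within a side is given.

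The 8 cerebellar genes correlated with the granule score at r = 0.877 (Calb1) to 0.997 (Car8), and with each other at 0.812 to 0.996 with a median of 0.946 over 28 pairs. Itpr1 followed the score less closely, at r = 0.728 (Spearman 0.733), and at 0.680 without DNP 3 and BAC 2, the libraries farthest from the median score. Taken as deviations from the group means, the correlation of Itpr1 with the score was 0.685. With the Purkinje score it was 0.712, and 0.576 without DNP 2 and DNP 3. These values describe 9 libraries that share their groups, depth and scaling, and carry no test. The relation depended on the scale, because on linear CPM, where CON 2 and BAC 1 weigh most, r of Itpr1 with the summed granule genes was 0.943.

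The slopes separated Itpr1 and Calb1 from the rest more plainly than the correlations. In the fit with group and granule score, log2 CPM rose per unit of score by 0.18 (SE 0.065) for Itpr1 and 0.30 (SE 0.066) for Calb1. The other slopes were 0.67 (SE 0.079) for Neurod1, 0.71 (SE 0.10) for Zic1, 0.93 (SE 0.054) for Cbln1, 1.07 (SE 0.043) for Car8, 1.22 (SE 0.054) for Ppp1r17, 1.27 (SE 0.12) for Pcp2 and 1.66 (SE 0.13) for Cbln3. Itpr1 and Calb1 thus had the shallowest slopes of the 9, and the difference between those 2 slopes was smaller than the sum of their standard errors.

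**Figure D2:**
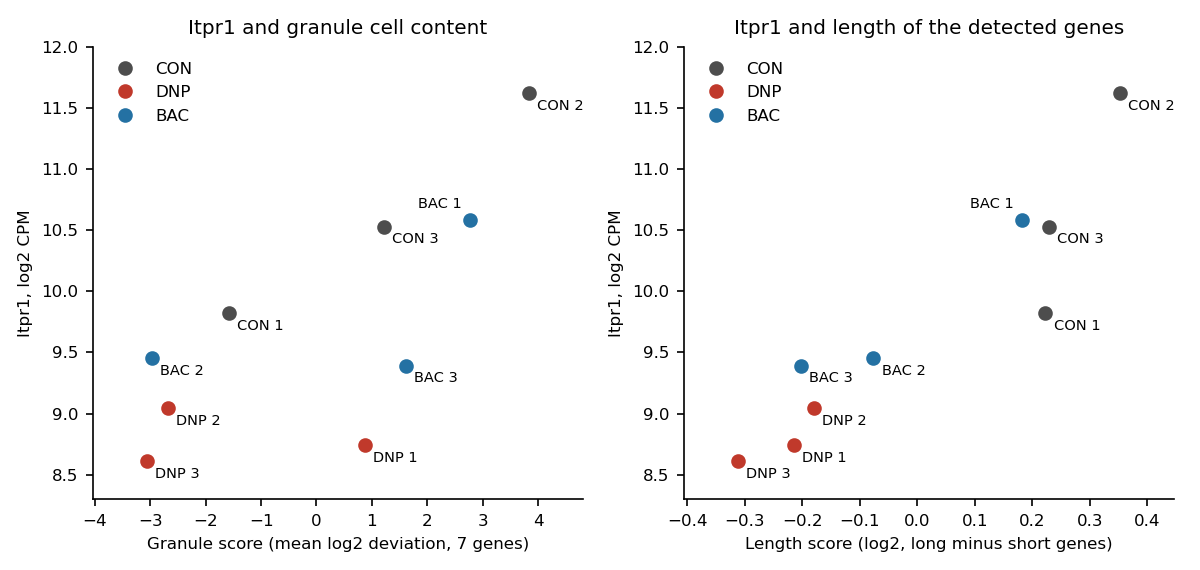
Log2 CPM of Itpr1 in each of 9 libraries against the granule score (left) and against the length score, the mean log2 deviation of long genes minus that of short genes (right). At similar granule scores CON 3 (1.22) and BAC 3 (1.61) have 1479 and 671 CPM, and DNP 1 (0.87) has 428 CPM.

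Libraries with similar cerebellar content differed in Itpr1, and between CON 1 and DNP 1 Itpr1 differed in the direction opposite to Car8 and Cbln3. CON 3 and BAC 3 had nearly the same Car8 (204 and 204 CPM) and Cbln3 (185 and 199.9 CPM), but Itpr1 was at 1479 CPM in CON 3 and 671 CPM in BAC 3. CON 1 had less Car8 than DNP 1 (21.8 against 114 CPM) and less Cbln3 (9.22 against 106 CPM), but more Itpr1 (905 against 428 CPM). These pairs are examples, and the choice of Itpr1 fixed its direction for CON 1 against DNP 1. In both pairs the control library was the higher for Itpr1. It also held more of 7 cortical and hippocampal genes, with a summed level of 1554 CPM in CON 3 against 206 CPM in BAC 3, and 1713 CPM in CON 1 against 494 CPM in DNP 1, so the libraries of a pair also differed in forebrain markers. Brainstem and spinal cord genes summed to 4.57 CPM in CON 3 against 340.7 CPM in BAC 3, and 0.862 CPM in CON 1 against 349.6 CPM in DNP 1. The length score was 0.229 in CON 3 against -0.203 in BAC 3, and 0.223 in CON 1 against -0.214 in DNP 1. Among the 3 libraries without Gabra6 counts Itpr1 was at 701 CPM in BAC 2, 527 CPM in DNP 2 and 390 CPM in DNP 3. Single libraries give no measure of error for such differences.

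With the granule score as a covariate the fold changes of the cerebellar genes shrank towards 0 and those of Itpr1 shrank less. The cerebellar genes ran with the score at r = 0.877 to 0.997 and Itpr1 at r = 0.728, so a smaller shrinkage of Itpr1 was built in. The fits are given as a description, and nothing is read from that difference. For DNP versus CON Itpr1 went from -2.04 to -1.35 (SE 0.42), Car8 from -3.29 to -0.18 (SE 0.22), Cbln3 from -3.97 to -0.55 (SE 0.59) and Calb1 from -1.72 to -0.53 (SE 0.42). Ppp1r17, Cbln1 and Zic1 changed sign, to 0.04, 0.40 and 0.85. For BAC versus DNP Itpr1 went from 1.11 to 0.64 (SE 0.38), Car8 from 2.55 to -0.01 (SE 0.22) and Cbln3 from 3.17 to 0.11 (SE 0.64). Neurod1 went from 2.45 to 0.45 (SE 0.44) and Zic1 from 1.60 to -0.57 (SE 0.54), closer in size to Itpr1 than Car8 and Cbln3 were. For BAC versus CON Itpr1 went from -0.93 to -0.71 (SE 0.36). The Purkinje score gave -1.35, 0.57 and -0.78 for Itpr1 in the same order. With it BAC versus CON moved away from 0 for Pcp2, from -0.96 to -1.05 (SE 0.58), and for Cbln3, from -0.79 to -1.05 (SE 0.73). The other cerebellar genes moved towards 0 in that comparison. On linear CPM a least squares fit of Itpr1 on group and summed granule CPM gave levels at a granule sum of 0 of 971 CPM (SE 110.5) in CON, 303 CPM (SE 84.6) in DNP and 475 CPM (SE 93.1) in BAC, with 0.753 CPM of Itpr1 (SE 0.062) per granule CPM and 5 residual degrees of freedom. Without CON 2 these levels were 968, 298 and 457 CPM, and the slope was 0.781 (SE 0.171). On both scales the DNP level of Itpr1 remained the lowest of the 3 groups, and the direction of these contrasts was fixed by the choice of the gene.

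**Figure D3:**
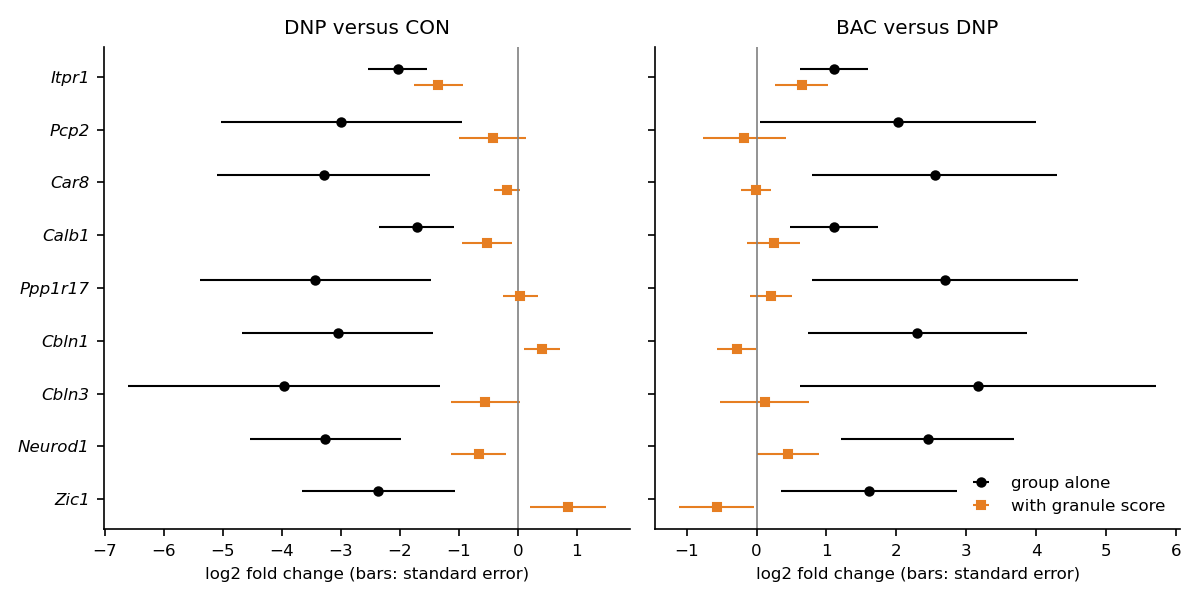
Log2 fold changes of the 9 genes with standard errors for DNP versus CON (left) and BAC versus DNP (right), from the fit on group alone (black circles) and with the granule score as covariate (orange squares). With the score Itpr1 is at -1.35 and 0.64, Car8 at -0.18 and -0.01, and Zic1 at 0.85 and -0.57.

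None of the 10 genes whose log2 CPM ran most like Itpr1 was in the reference or pathway lists. Over the 9 libraries, among 12912 genes of at least 5 CPM on average, the 10 highest correlations were with 1700025G04Rik, Med13, Stk35, Tnrc6b, Lrp6, Nsd1, Gpr63, Foxo3, Cadm3 and Zkscan1, at r = 0.969 to 0.979. Correlation does not measure the size of a change. In DNP versus CON the log2 fold change was -1.79 for Gpr63 and from -1.04 (Cadm3) to -0.22 (Zkscan1) for the others, against -2.04 for Itpr1. Med13 is a subunit of the Mediator complex, Tnrc6b acts in microRNA silencing, Lrp6 is a Wnt co-receptor and Nsd1 is a histone methyltransferase. Of the cerebellar genes Calb1 came closest, at r = 0.921 and rank 145, then Neurod1 at 0.841 and rank 556, and the other 6 lay between 0.699 and 0.735 with ranks from 1227 to 1467. By contrast the genes most like Cbln3 were Gabra6, Cnpy1, Ccdc186, Pcp2 and Crtam (r = 0.993 to 0.998), and those most like Pcp2 were Gabra6, Cbln3, Cnpy1, Fat2 and Ccdc186 (r = 0.993 to 0.996). The genes running most opposite to Itpr1 were Mgst3, Nipsnap1, Znhit1, Eef1b2 and Usmg5, at r = -0.988 to -0.976.

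Several of these neighbours are long genes, and Itpr1 itself is long. The length by which the authors divided its counts was 20.9 kb, more than that of 96.8% of the genes of at least 5 CPM, whose median was 6.35 kb. Its 10 nearest genes had lengths of 2.76 to 30.4 kb and the 5 most opposite ones 0.341 to 5.47 kb. In 10 bins of genes by length the median r with Itpr1 rose from -0.482 in the shortest to 0.391 in the longest bin, and over genes the Spearman correlation of length with r was 0.355, against 0.193 for r with Cbln3. Genes are not independent replicates, and these values describe the same 9 libraries.

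**Figure D4:**
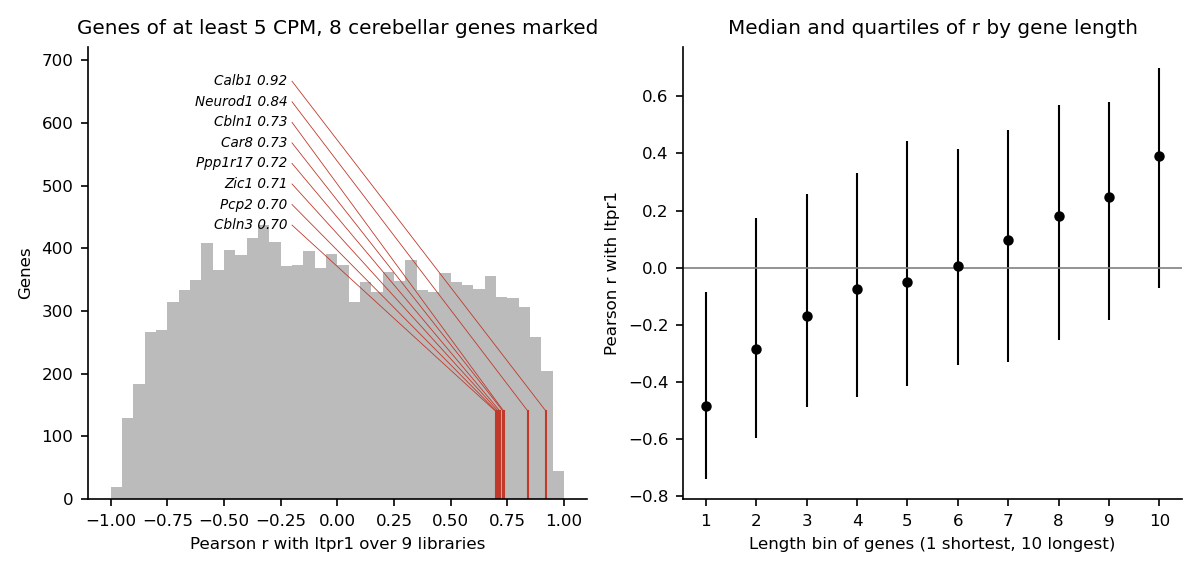
Left, number of genes by Pearson r with Itpr1 over 9 libraries, with the 8 cerebellar genes marked in red (0.70 for Cbln3 to 0.92 for Calb1). Right, median and quartiles of r with Itpr1 in 10 bins of genes by length, from -0.482 in the shortest to 0.391 in the longest bin.

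A length score was then taken for each library as the mean log2 deviation of 1292 genes of at least 14.9 kb minus that of 1292 genes of at most 2.03 kb. It was 0.223, 0.352 and 0.229 in CON, -0.214, -0.180 and -0.312 in DNP, and 0.182, -0.0766 and -0.203 in BAC. The CON libraries were thus above all others, and BAC 1, the BAC library with most Itpr1, was the highest of the diabetic libraries. The r of Itpr1 with the length score was 0.926 (Spearman 0.933), 0.885 without CON 2 and CON 3, and 0.797 as deviations from the group means, while the length and granule scores had r = 0.569. With the length score as a covariate the fold change of Itpr1 was 0.13 (SE 0.72) for DNP versus CON, 0.18 (SE 0.39) for BAC versus DNP and 0.32 (SE 0.51) for BAC versus CON. With both scores it was 0.04 (SE 0.60), 0.12 (SE 0.33) and 0.16 (SE 0.43). The turn to a positive value was not limited to Itpr1. With the length score alone the other 8 genes were also positive in DNP versus CON, from 0.38 (SE 4.33) for Pcp2 to 1.49 (SE 2.59) for Zic1, and in BAC versus CON, from 0.69 (SE 0.83) for Calb1 to 2.28 for Cbln3. The CON range of the length score overlapped neither the DNP nor the BAC range. Group and length score thus cannot be told apart in DNP versus CON or in BAC versus CON. The wide errors leave room for fold changes in either direction. The share of counts on mitochondrial transcripts was 4.34 to 5.36% in CON, 6.68 to 7.01% in DNP and 5.94 to 7.23% in BAC, below all other libraries in CON, where the length score was above all others. Within BAC it was highest in BAC 2, whose length score lay between those of the other two. The part of either measure in the level of Itpr1 was not tested.

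The other genes of IP3 signalling were taken as a list of 21, which includes G proteins, phospholipases C and calcium pumps. In DNP versus CON 20 had negative and 1 (Ryr3) positive fold changes with a median of -0.58, against 0.01 over all genes, of which 8992 of 18501 were negative. At an unadjusted p under 0.05 4 of the 21 were lower (Gnaq, Atp2a2, Atp2a3 and Ryr2), against 5.46% of all genes. The median was -0.25 without DNP 1 and -0.31 without CON 2, and -0.46 with the granule score as a covariate. It was -0.20 with the length score and -0.10 with the granule and length scores together. None passed an adjusted p under 0.05 by edgeR. Gnaq, the G protein subunit that activates phospholipase C, had 249, 206 and 244 CPM in CON, 162, 154 and 143 CPM in DNP, and 181, 178 and 184 CPM in BAC. The 3 groups of Gnaq did not overlap, and its log2 fold change of -0.60 (SE 0.13) in DNP versus CON had an edgeR adjusted p of 0.294. The ryanodine receptor Ryr2, a calcium release channel of the same membrane, had 305, 335 and 337 CPM in CON, 175, 229 and 222 CPM in DNP, and 275, 226 and 206 CPM in BAC, so that both diabetic groups were below CON. Atp2a2, a calcium pump that refills the store, had -0.60 (SE 0.20) in DNP versus CON and 0.05 (SE 0.20) in BAC versus DNP.

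In BAC versus DNP 12 of the 21 had positive and 9 negative fold changes with a median of 0.0622, against 8908 of 18501 genes positive and a median of -0.01. By edgeR 0 of the 21 were higher at an unadjusted p under 0.05, against 1.37% of all genes, and 2 (Gnaq and Plcb3) were higher without overlap, against 3.38%. In BAC versus CON 18 were negative with a median of -0.50, against 9586 of 18501 genes and a median of -0.02. At an unadjusted p under 0.05 3 (Gnaq, Atp2a2 and Ryr2) were lower, against 3.3% of all genes. The genes of the list with the highest r to Itpr1 were Plcb3, a phospholipase C, at 0.889, Atp2a3, a calcium pump, at 0.846 and Ryr2 at 0.843. Some of the list also ran with cerebellar content. The r with Cbln3 was 0.790 for Plcb3, 0.936 for Atp2a3 and 0.364 for Ryr2. Over the list it ranged from -0.893 (Ryr3) to 0.939 (Plcb4). The other IP3 receptors were at r = 0.288 (Itpr2) and 0.741 (Itpr3). Itpr2 had 25.9 to 30.4 CPM in CON, 21.7 to 31.1 CPM in DNP and 30.2 to 34.7 CPM in BAC, and all groups overlapped. Itpr3 had 11.5, 89.7 and 19.5 CPM in CON, 20.9, 15.4 and 10.6 CPM in DNP, and 51.4, 6.42 and 20.5 CPM in BAC, and was highest in CON 2 and BAC 1, as were the cerebellar genes.

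**Figure D5:**
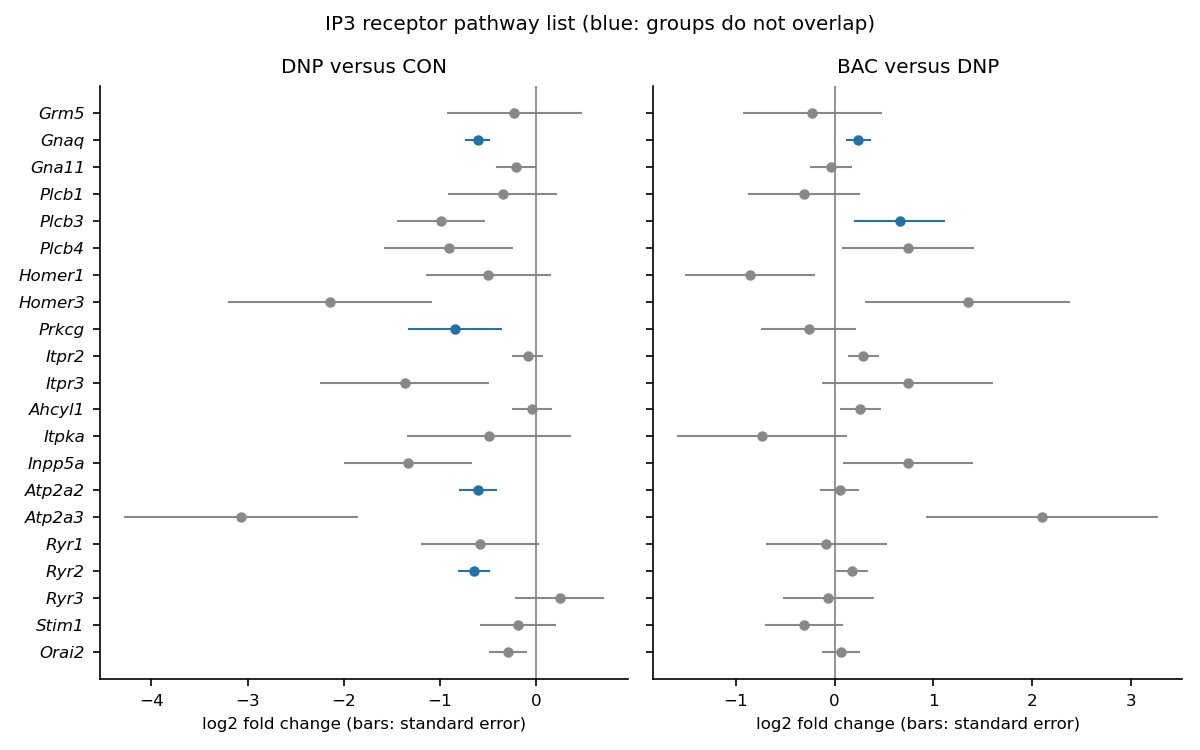
Log2 fold changes with standard errors of the 21 genes of IP3 signalling for DNP versus CON (left) and BAC versus DNP (right). Blue marks genes whose groups do not overlap, and 20 of 21 points lie below 0 on the left against 9 of 21 on the right.

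Markers of other regions and cells were set beside Itpr1 as whole lists. The summed level of 7 granule reference genes was 90.3 to 2906 CPM in CON, 124.5 to 299.9 CPM in DNP and 128 to 1358 CPM in BAC, and that of 6 Purkinje reference genes was 159.9 to 1615, 109 to 267 and 156 to 752 CPM. Of 5 genes of meningeal fibroblasts, cells that also make Zic1, the sum was 48.0 to 64.7 CPM in CON, 24.4 to 38.1 CPM in DNP and 39.7 to 77.9 CPM in BAC, so that DNP was below both other groups, as for Itpr1. The sums of 7 cortical and hippocampal genes (206 to 1713 CPM over the libraries) and of 6 striatal genes (221 to 1896 CPM) overlapped between all groups, and their median r with Itpr1 was -0.164 and -0.434. The sums of 5 thalamic genes (66.9 to 218 CPM) and of Gdf10, Eomes and Tfap2b, 3 genes of other cerebellar cells (8.93 to 256 CPM), overlapped too. The part of these cells in the level of Itpr1 was not tested. Leaving out DNP 1, BAC 1 and BAC 3, the libraries with Hoxa5 counts, the fold change of Itpr1 was -2.02 (SE 0.58) for DNP versus CON and 0.61 (SE 0.71) for BAC versus DNP, the latter with a single BAC library whose spread is assumed to be that of the other groups.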

How the data were processed

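The deposited gene counts and FPKM values of 9 brain libraries were used. Per the paper's methods and the submitters' processing notes, the authors checked reads with FastQC 0.11.9, filtered them with fastp, aligned them to GRCm38 with HISAT2 2.1.0 (with Bowtie2 2.3.4.1 for related steps) and quantified genes with StringTie 1.3.3b. Libraries were not strand-specific. In the deposited table FPKM equals the count over a gene length and the library total (lengths agreed between libraries to a ratio of 1.00009 over 15521 genes), so it carries no TMM scaling. FPKM was used to compare genes, and counts for all tests.

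Counts were fitted with edgeR 4.0.16 (R 4.3.3) by the quasi-likelihood test after filterByExpr (minimum count 10) and TMM, with all 9 libraries and group as factor. P-values were adjusted by Benjamini-Hochberg over 18501 genes. DESeq2 1.42.0, the tool of the study, and limma 3.58.1 on log2 FPKM were alternatives. Log2 CPM used a prior count of 2. Totals of 13107382 to 16008129 counts limit precision, and a floor of 3 counts is given where a gene was at 0. The floor covers counting error only. Replicates are separate mice, and no pair of libraries of a group agreed within sampling noise (chi-square per degree of freedom 14.3 to 109.5).

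The genes and lists were chosen with earlier results of these data known. Named genes were the 9 members, genes of the reference and pathway lists, genes of other lists at 0 counts in a library, the 10 highest and 5 lowest in correlation with Itpr1, and the 5 highest with Pcp2 and Cbln3, among genes of at least 5 CPM. Examples from the lists were picked after their values were seen. Some genes planned for the lists are not reported here and were left out of every list and score. The length score, the fit on linear CPM and the fit without libraries with Hoxa5 counts were added after seeing the data. The fitting script was tested on simulated counts.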

Additional observations from a re-analysis of the deposited data

How the results depend on the processing

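Of 567 log2 fold changes of the 9 genes under alternatives, 505 kept their direction and 62 reversed, 51 of these with a covariate. The cause was not tested. Scaling by DESeq2 size factors or by library totals, no filter on low counts and limma on log2 FPKM reversed none. By DESeq2 346 genes were called for DNP versus CON, 7 for BAC versus DNP and 101 for BAC versus CON, against 0 by edgeR in each, and Itpr1 passed in DNP versus CON (-2.05), a contrast that its choice used, so nothing is read from the call. The granule score reversed DNP versus CON for Ppp1r17 (0.0399), Cbln1 (0.40) and Zic1 (0.85), BAC versus DNP for Pcp2 (-0.17), Car8 (-0.0108), Cbln1 (-0.29) and Zic1 (-0.57), and BAC versus CON for Ppp1r17 (0.24), Cbln1 (0.12) and Zic1 (0.28). The Purkinje score reversed DNP versus CON for Cbln1 (0.32) and Zic1 (0.92), BAC versus DNP for Pcp2 (-0.32), Car8 (-0.25), Ppp1r17 (-0.00327), Cbln1 (-0.56), Cbln3 (-0.0245) and Zic1 (-0.90), and BAC versus CON for Zic1 (0.0213), and with it edgeR called 7 genes in DNP versus CON, none of them a member. The length score, chosen after seeing the data, reversed DNP versus CON and BAC versus CON for all 9 genes, at 0.13 and 0.32 for Itpr1, 0.38 and 1.17 for Pcp2, 0.61 and 1.64 for Car8, 0.55 and 0.69 for Calb1, 0.50 and 1.75 for Ppp1r17, 1.11 and 1.80 for Cbln1, 1.08 and 2.28 for Cbln3, 0.56 and 1.31 for Neurod1, and 1.49 and 1.62 for Zic1. With the granule and length scores together DNP versus CON reversed for Itpr1 (0.0424), Calb1 (0.41), Cbln1 (1.01), Neurod1 (0.22) and Zic1 (1.99), BAC versus DNP for Calb1 (-0.11), Cbln1 (-0.50) and Zic1 (-0.96), and BAC versus CON for Itpr1 (0.16), Calb1 (0.30), Ppp1r17 (0.0481), Cbln1 (0.51), Neurod1 (0.31) and Zic1 (1.03). Leaving out the libraries with Hoxa5 counts, BAC versus DNP reversed for Car8 (-0.34), Cbln1 (-0.62) and Zic1 (-0.74). Leaving out each library in turn, Itpr1 ranged from -2.37 to -1.42 in DNP versus CON, 0.62 to 1.32 in BAC versus DNP and -1.44 to -0.30 in BAC versus CON, and edgeR called 0 to 1 genes in the comparisons with CON and 0 in BAC versus DNP. BAC versus CON turned positive without CON 2 for Pcp2 (0.65, from a low of -1.997), Car8 (1.15, -2.01), Calb1 (0.35, -1.25), Ppp1r17 (1.48, -1.89), Cbln1 (1.59, -2.04), Cbln3 (1.72, -2.48), Neurod1 (0.96, -2.16) and Zic1 (1.56, -1.85), each lowest without BAC 1. The r of Itpr1 ranged from 0.576 to 0.846 with the granule score and 0.542 to 0.832 with the Purkinje score, lowest without CON 2 and highest without DNP 1. It was 0.576 with the Purkinje score without DNP 2 and DNP 3, and 0.943 and 0.951 with granule and Purkinje sums on linear CPM. The groups share replicate numbers, and deviations of same-numbered libraries correlated at -0.579 to 0.560. Whether same-numbered libraries share more than a number cannot be learned from the labels. With a replicate block Itpr1 had -1.99, 1.12 and -0.86, and 0 genes were called in each comparison. At this depth Pcp2 and Cbln3 rest on 3 to 8 counts in DNP 2, DNP 3 and BAC 2.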
